A study of Mus musculus with 9 samples.

Results

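Transcript levels of 96 genes of the ubiquitin ligation machinery were compared between the striatum of R6/2 and wild-type mice. They comprise the ubiquitin-conjugating enzymes (E2, Ube2 symbols), the Ube3 and Ube4 ligases (E3 and E4), the cullins (Cul) and the F-box proteins named Fbxw and Fbxo. Members were chosen by gene symbol alone from the probe sets annotated to exactly 1 gene, and the brightest probe set of a gene by its mean over the 9 arrays stood for it. This gave 33 E2, 5 E3 and E4, 8 cullin, 18 Fbxw and 32 Fbxo genes among 18193 measured genes, on 205 probe sets in all. No Ube1 gene was among them. By their annotation, 2 of the 33 Ube2 symbols are not conjugating enzymes: Ube2cbp names a protein that binds Ube2c, and RefSeq lists Ube2d-ps as a long non-coding RNA.

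The R6/2 group was 5 female mice carrying the R6/2 transgene (named R62_86, R62_95, R62_105, R62_107 and R62_109), and the wild-type group was 4 female mice (46, 47, 49 and 66). All were 12 weeks old on a mixed C57Bl/6 and CBA strain background, aged 85 days in the wild-type group and for R62_86 and 83 days for the other R6/2 mice. The transgene is the first exon of human huntingtin with an expanded CAG repeat, driven by the human huntingtin promoter, and it models Huntington disease without a full-length mutant protein. Whole striatal tissue was measured on 1 array per mouse, so for every transcript fewer cells of a type and less RNA per cell cannot be told apart. Per-mouse values are given in the order of these names throughout. Values are log2 expression, where a difference of 1 is a doubling, and differences are R6/2 minus wild-type with their SE.

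Ubiquitin is activated by an E1 enzyme, passed to an E2 and joined to a target protein with the help of an E3 ligase. Cullins are scaffolds of the largest E3 class: Cul1 holds Skp1 and an exchangeable F-box protein that binds the target, while Cul3 uses BTB-domain adaptors and Cul4a and Cul4b use Ddb1. HECT ligases such as Ube3a carry the ubiquitin on their own catalytic cysteine, and the U-box proteins Ube4a and Ube4b lengthen chains that others started. In striatal neurons this system is studied because mutant huntingtin forms inclusions that stain for ubiquitin.

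Of the 96 genes, 15 were higher and 3 were lower in R6/2 mice at an adjusted p under 0.05 (limma, Benjamini-Hochberg over all genes). The share called either way was 18.8%, against 16.9% of all genes. The share called higher was 15.6% against 9.28% of all genes, and the share called lower was 3.12% against 7.57%. The groups of mice did not overlap for 18 members, or 18.8%, against 17.3% of all genes. Differences were small: they ran from -0.60 for Fbxo32 to 0.39 for Fbxo22, with a median of 0.08 against -0.02 over all genes. The count of 15 fell to 7 without wild-type mouse 47 and to 9 without wild-type mouse 66 or R62_109, while the share of all genes called higher fell from 9.28% to 6.16%, 6.56% and 6.32%.

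Probe brightness bears on these shares, since 71 of the 96 members lay in the brighter 50% of genes. Of the other 25 members, 0 were higher and 1 was lower by limma. When the brighter 50% was tested alone, 16 of 71 members (22.5%) were higher against 17.9% of its genes, and 2 (2.82%) were lower against 11.9%. Counted either way, 25.4% of these members were called against 29.8% of the brighter genes. The groups of mice did not overlap for 23.9% of them against 26.9%. The direction also depended on the scale. When arrays were centred on 6 housekeeping genes, 0 members were higher against 2.72% of all genes and 4 were lower against 13.8%, and the members' median was -0.05 against -0.15 over all genes. Of these housekeeping genes, Hprt (0.30) and Pgk1 (0.28) were themselves higher in R6/2 mice by limma, with adjusted p-values of 0.0112 and 0.00795.

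**Figure D1:**
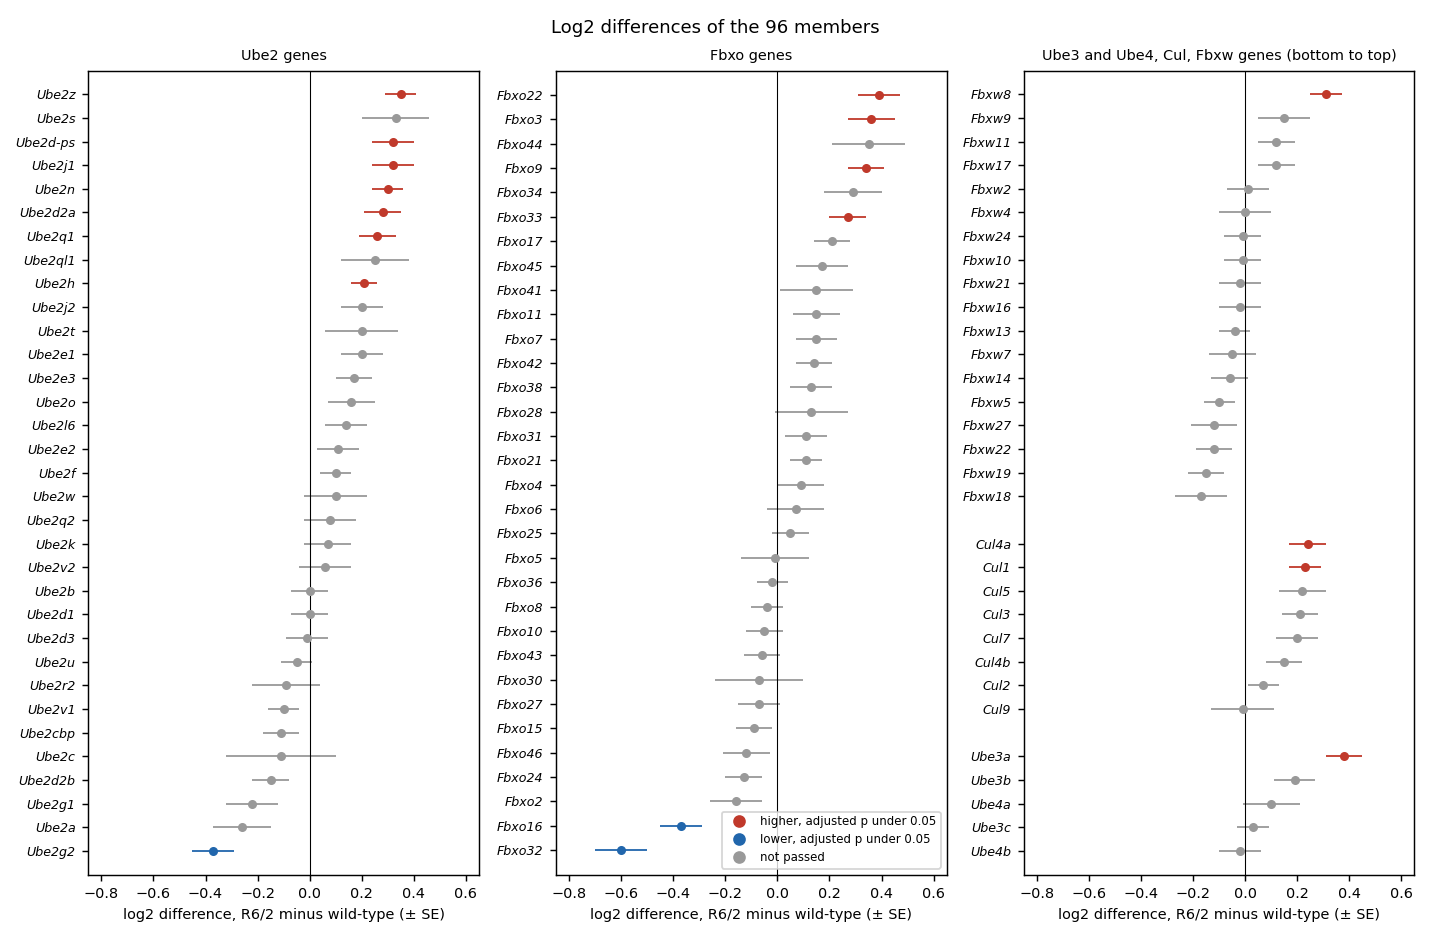
Log2 difference (R6/2 minus wild-type, ± SE, 5 against 4 mice) of each of the 96 members, in panels by class, with colour for an adjusted p under 0.05. Most coloured points lie to the right of 0, between 0.21 and 0.39, and the lower calls are Ube2g2, Fbxo16 and Fbxo32.

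The transcript of Ube2z, an E2 that is charged by the alternative E1 enzyme Uba6, was 8.78, 8.73, 8.73 and 8.77 in the wild-type group. In the R6/2 group it was 9.06, 9.19, 9.16, 9.05 and 9.05. Every R6/2 mouse lay above every wild-type mouse, and the wild-type values spanned a narrow range. The difference was 0.35 ± 0.06 (adjusted p = 0.00278, limma), a change of 27.4%. Its other 2 probe sets, which are dimmer, differed by 0.01 and 0.11 and did not pass, and the mean over all 3 differed by 0.16 (adjusted p = 0.0457, limma). Ube2n, the E2 that builds non-degradative signalling chains with the inactive partners Ube2v1 and Ube2v2, was 9.73, 9.63, 9.62 and 9.59 in the wild-type mice and 10.04, 9.88, 9.97, 9.85 and 9.96 in the R6/2 mice. The groups did not overlap, and the difference was 0.30 ± 0.06 (adjusted p = 0.00887, limma). Its partners were not past the threshold, with -0.10 ± 0.06 for Ube2v1 and 0.06 ± 0.10 for Ube2v2.

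The E2 enzymes of degradation at the endoplasmic reticulum differed in sign. Ube2g2, a soluble E2 recruited to that membrane, was 8.66, 8.41, 8.75 and 8.54 in the wild-type group and 8.24, 8.31, 8.08, 8.17 and 8.29 in the R6/2 group. All R6/2 values lay under the lowest wild-type value, that of mouse 47, and the difference was -0.37 ± 0.08 (adjusted p = 0.0122, limma). Ube2j1, which is anchored in the same membrane, was 8.98, 8.87, 9.12 and 8.95 in the wild-type mice and 9.18, 9.23, 9.50, 9.25 and 9.33 in the R6/2 mice. The groups did not overlap here either, although wild-type mouse 49 and R62_86 were close, and the difference was 0.32 ± 0.08 (adjusted p = 0.0216, limma). The dimmer Ube2j1 probe set differed by 0.36 ± 0.17 and, like the mean over both, did not pass. The relatives Ube2j2 (0.20 ± 0.08) and Ube2g1 (-0.22 ± 0.10) had adjusted p-values of 0.121 and 0.149.

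The other E2 calls were Ube2d2a, Ube2h and Ube2q1, together with the non-coding Ube2d-ps. Ube2d2a, a broadly acting E2 that serves many RING ligases, had a mean of 10.22 ± 0.11 (SD, n = 4) without the transgene and 10.50 ± 0.09 (SD, n = 5) in R6/2 mice. Ube2h, the E2 of the CTLH ligase, was 9.31, 9.28, 9.25 and 9.36 in wild-type mice and 9.45, 9.52, 9.52, 9.52 and 9.52 in R6/2 mice, and the groups were separate. Its difference of 0.21 ± 0.05 was the smallest among the called members (adjusted p = 0.0246, limma). Its next-brightest probe set was also higher (0.28 ± 0.08), but the dimmer ones differed by 0.02 and 0.08. The mean over the Ube2h probe sets did not pass. Ube2q1 differed by 0.26 ± 0.07 and Ube2d-ps by 0.32 ± 0.08, with 0.04 ± 0.11 on the other probe set of Ube2d-ps. Ube2d-ps shares its family name with Ube2d2a and other Ube2d genes, and whether its probes also bind their transcripts was not tested.

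Members with a known role in cell division or in Huntington disease were among the 25 E2 genes that did not pass. Ube2k, an E2 isolated through its binding to huntingtin, differed by 0.07 ± 0.09, and 10.01 in R62_95 was its lowest value. Ube2s, which extends chains on the anaphase-promoting complex, differed by 0.33 ± 0.13 with an adjusted p of 0.101, and R62_95 at 9.89 lay under wild-type mouse 49 at 9.92. Ube2c, which starts chains on that complex, differed by -0.11 ± 0.21 on a dim probe set. Ube2o, which combines E2 and E3 activity in 1 protein, differed by 0.16 ± 0.09, and Ube2l6, the E2 for the interferon-induced modifier Isg15, by 0.14 ± 0.08. Ube2f, an E2 for the cullin modifier Nedd8, differed by 0.10 ± 0.06. Over all 33 Ube2 members the counts were 7 higher and 1 lower with a median of 0.10, and without Ube2cbp and Ube2d-ps they were 6 higher and 1 lower of 31. The higher share of the 33 was 21.2% and the lower share 3.03%, against 9.28% and 7.57% of all genes. Of the brighter 50%, in which 27 of them lay, 17.9% were higher and 11.9% lower when tested alone. The 8 calls became 3 without wild-type mouse 47, 4 without R62_109 and 5 without wild-type mouse 66 or R62_105.

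Ube3a is a HECT ligase that is imprinted in neurons and whose maternal loss causes Angelman syndrome. Its transcript was 10.29, 10.31, 10.46 and 10.32 in the wild-type group and 10.64, 10.87, 10.64, 10.70 and 10.79 in the R6/2 group. The groups were separate, with wild-type mouse 49 the nearest to the R6/2 range, and the difference was 0.38 ± 0.07 (adjusted p = 0.00469, limma), a change of 30.3%. The call rested on the brightest of its 6 probe sets. The other 5 differed by -0.11 to 0.53 and did not pass, and the mean over all 6 differed by 0.20 (adjusted p = 0.185, limma).

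The other ligases of this class did not pass. Ube3b, a HECT ligase, was 9.07, 9.07, 8.88 and 9.23 in the wild-type group and 9.26, 9.41, 9.22, 9.11 and 9.24 in R6/2 mice, and the ranges overlapped (0.19 ± 0.08, adjusted p = 0.149, limma). Ube3c, a proteasome-associated HECT ligase, differed by 0.03 ± 0.06. The U-box genes differed by 0.10 ± 0.11 for Ube4a and -0.02 ± 0.08 for Ube4b. The class thus held 1 higher call of 5 members (20.0%) and a median of 0.10. All 5 lay in the brighter part of the genes. Of that part, 17.9% were called higher when tested alone, against 9.28% of all genes. With 5 members, 1 call does not set the class apart from these shares.

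Among the cullins, Cul1 and Cul4a were higher and 7 of 8 had a positive difference, with a class median of 0.21. All 8 lay in the brighter 50% of genes, where 58.0% of genes had a positive difference, against 46.1% over all genes. When that part was tested alone, 17.9% of its genes were called higher, against 9.28% over all genes, and 3 cullins passed. Cul1, the scaffold of the F-box ligases, was 8.84, 8.87, 8.96 and 8.88 in the wild-type group and 9.04, 9.17, 9.17, 9.05 and 9.17 in the R6/2 group. All R6/2 values were above all wild-type values, and the difference was 0.23 ± 0.06 (adjusted p = 0.0228, limma). Cul4a, a scaffold for Ddb1-bound receptors, was 7.30, 7.31, 7.05 and 7.28 in the wild-type group and 7.52, 7.50, 7.49, 7.37 and 7.50 in R6/2 mice. The groups were separate, but wild-type mouse 49 and R62_107 each lay below the rest of their group (0.24 ± 0.07, adjusted p = 0.0373, limma). Without wild-type mouse 47 or 66, or R62_105 or R62_109, 0 cullins passed.

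Cul3, the scaffold of the BTB-domain ligases, was 9.16, 9.19, 9.23 and 9.27 in the wild-type group and 9.44, 9.26, 9.47, 9.40 and 9.54 in R6/2 mice. R62_95 lay inside the wild-type range, and the difference of 0.21 ± 0.07 missed the threshold (adjusted p = 0.0575, limma). Its 4 other probe sets had negative differences of -0.07 to -0.29, none past the threshold, and in each of them R62_95 was the lowest array. Cul5 (0.22 ± 0.09) and Cul2 (0.07 ± 0.06), which use elongin-bound receptors, and Cul4b (0.15 ± 0.07) did not pass. Cul7, the partner of Fbxw8, differed by 0.20 ± 0.08, with 8.07 in R62_95 against 7.74 to 7.82 in the other R6/2 mice. Cul9, a large relative of Cul7, differed by -0.01 ± 0.12. Housekeeping centring, under which the all-gene median was -0.15 and not -0.02, put Cul2 at -0.06, and under the mean of probe sets Cul3 turned to -0.06 and Cul4b to -0.04 while Cul9 turned to 0.27, none of them past the threshold.

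**Figure D2:**
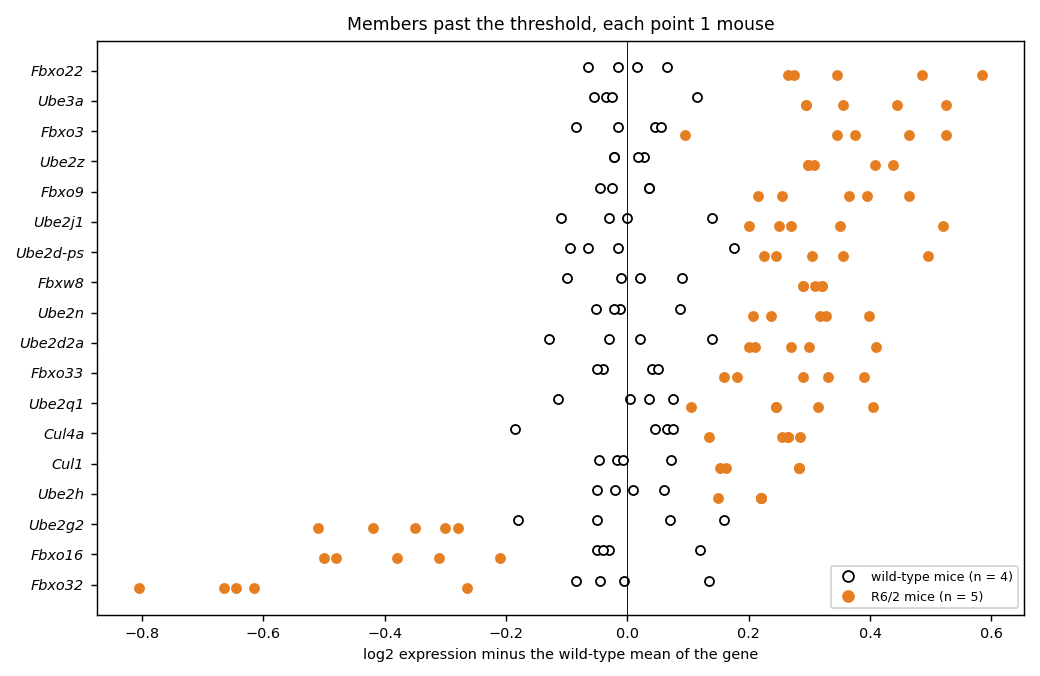
Log2 expression of the 18 members past the threshold, each point 1 mouse, shown relative to the wild-type mean of that gene (open, 4 wild-type mice; filled, 5 R6/2 mice). In every line the filled points lie on 1 side of the open ones, and Fbxo32 shows the widest R6/2 spread, from 7.99 to 8.53 before centring.

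The F-box genes held the largest fall. Fbxo32, also called atrogin-1 and known as a ligase subunit induced in wasting muscle, was 8.71, 8.93, 8.75 and 8.79 in the wild-type group. In the R6/2 group it was 8.13, 7.99, 8.15, 8.53 and 8.18. R62_107 lay nearest to the wild-type range, which it did not reach. The difference was -0.60 ± 0.10 (adjusted p = 0.00315, limma), a change of -34.0%, and all 3 probe sets were lower, by -0.60, -0.67 and -0.69. Fbxo16, an F-box protein with less known targets, was 6.64, 6.79, 6.62 and 6.63 in the wild-type group and 6.46, 6.36, 6.19, 6.29 and 6.17 in R6/2 mice. The groups were separate and the difference was -0.37 ± 0.08 (adjusted p = 0.00795, limma), on the gene's single probe set.

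In the Fbxo group, 4 genes were higher. Fbxo22, whose targets include histone demethylases, was 8.97, 8.94, 8.89 and 9.02 in wild-type mice and 9.30, 9.22, 9.44, 9.23 and 9.54 in R6/2 mice. The lowest R6/2 mouse exceeded the highest wild-type mouse, and the difference was 0.39 ± 0.08 (adjusted p = 0.00753, limma). Fbxo9 was 9.53, 9.45, 9.47 and 9.53 in the wild-type group and 9.86, 9.75, 9.96, 9.71 and 9.89 in R6/2 mice (0.34 ± 0.07, adjusted p = 0.00663, limma), again without overlap. The mean over the Fbxo9 probe sets differed by 0.29 and missed the threshold (adjusted p = 0.0535, limma). Fbxo3 (0.36 ± 0.09) and Fbxo33 (0.27 ± 0.07) were also higher. A dimmer Fbxo3 probe set was higher too (0.26 ± 0.06, adjusted p = 0.0158, limma over all probe sets). Its next-brightest probe set differed by -0.16 ± 0.10 and the dimmest ones by -0.06 and 0.03, none past the threshold. The mean over the 5 probe sets of Fbxo3 differed by 0.09 (adjusted p = 0.366, limma). For Fbxo3, 8.91 in R62_95 was close to the wild-type maximum of 8.87. Of the disease-linked and glycoprotein-binding members, Fbxo7, mutated in a recessive parkinsonism, differed by 0.15 ± 0.08, Fbxo2 by -0.16 ± 0.10 and Fbxo6 by 0.07 ± 0.11, none past the threshold.

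Of the 18 Fbxw genes, 1 was higher. Fbxw8, which forms a ligase with Cul7, was 7.36, 7.17, 7.29 and 7.26 in the wild-type group and 7.56, 7.56, 7.58, 7.59 and 7.59 in the R6/2 group. The R6/2 mice were close together and all above the wild-type mice (0.31 ± 0.06, adjusted p = 0.00556, limma), but the mean over its 3 probe sets differed by -0.05. Fbxw7, which targets cyclin E, Myc and Notch, differed by -0.05 ± 0.09, and Fbxw11, a beta-TrCP protein that targets beta-catenin, by 0.12 ± 0.07. A run of 9 Fbxw genes (Fbxw13, Fbxw14, Fbxw16, Fbxw18, Fbxw19, Fbxw21, Fbxw22, Fbxw24 and Fbxw27) lies at chr9:109139454-109790660 of GRCm38.p6. All 9 lay in the dimmer 50% of genes, at brightness percentiles of 1.2 to 46.7, and 0 were called by limma. Their differences ran from -0.17 to -0.01. Of all 25 members in the dimmer 50%, these 9 included, 4 (16.0%) had a positive difference. The run was chosen after its values were seen. Over all 50 F-box genes, 5 were higher (10%) and 2 lower (4.0%) with a median of -0.01, shares near or below the 9.28% and 7.57% of all genes.

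The probe sets of a gene did not always share a direction. When all 34945 single-gene probe sets were tested, 30 of the members' 205 passed, 23 higher and 7 lower, against 12.2% of all probe sets. Of the 15 called members with several probe sets, 6 had at least 2 called the same way and 11 had all differences of 1 sign. Fbxw8 had another higher probe set (0.29 ± 0.08) and a dim one that was lower (-0.76 ± 0.11, adjusted p = 0.00213, limma). That dim probe set read 5.47, 5.44, 5.69 and 5.16 in the wild-type group and 4.53, 4.81, 4.79, 4.57 and 4.72 in the R6/2 group, without overlap. Ube2q1 had 1 probe set higher (0.26 ± 0.07) and 1 lower (-0.24 ± 0.06, adjusted p = 0.0394, limma). Both-way calls of this kind were found in 2 of the 96 members and in 22 of the 18193 genes. Only genes with several probe sets, among them 56 members, can show such calls. The counts within the 15 called members were not made over all genes.

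In 3 of the 96 members only a dimmer probe set passed, a count that was not made over all genes. Fbxo28 differed by 0.57 ± 0.08 on its next-brightest probe set, which read 7.54, 7.64, 7.59 and 7.70 in the wild-type group and 8.03, 8.17, 8.33, 8.12 and 8.31 in R6/2 mice, while the brightest differed by 0.13 ± 0.15 with 7.54 in R62_95. Fbxo44, a relative of Fbxo2 and Fbxo6, differed by 0.66 ± 0.09 on its dimmer probe set and by 0.35 ± 0.14 on the brighter one. Ube2w, an E2 that modifies the amino terminus of proteins, differed by 0.82 ± 0.24 on a dim probe set and by 0.10 ± 0.13 on the brightest. Which transcript forms these probe sets detect was not tested.

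**Figure D3:**
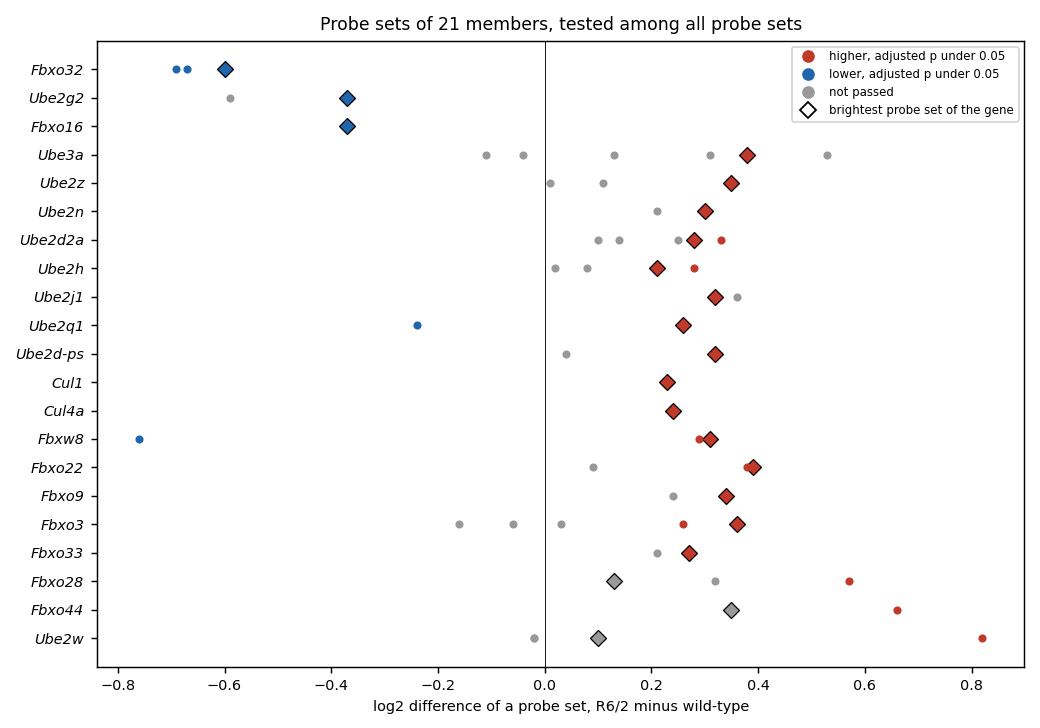
Log2 difference (R6/2 minus wild-type) of every probe set of 21 members, namely the 18 called members and the 3 called on a dimmer probe set alone, with diamonds for the brightest probe set. All 3 Fbxo32 probe sets lie at -0.60 or below, whereas Fbxw8 and Ube2q1 have called probe sets on both sides of 0.

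Close relatives were compared within each mouse, as the difference between genotypes in log2(first gene) minus log2(second gene). Of 20 pairs, 0 passed 0.05 after Benjamini-Hochberg adjustment, and 4 had an unadjusted p under 0.05 in the exact two-sided permutation test over 126 arrangements, whose smallest possible p is 0.00794. At least 4 pairs at that smallest p would be needed for a pass there after adjustment, so the count of 0 says little about whether relatives differ. Ube2a and Ube2b, the mouse Rad6 proteins, gave -0.26 ± 0.12 (exact permutation p = 0.00794, adjusted 0.106), from differences of -0.26 and 0.00. The Ube2a value was -0.14 without wild-type mouse 49, whose 9.76 lay above 9.23 to 9.35 in the other wild-type mice, and the other Ube2a probe set differed by 0.01 ± 0.12. Within the Ube2d family, Ube2d1 minus Ube2d2a gave -0.28 ± 0.08 (exact permutation p = 0.0159, adjusted 0.106) and Ube2d2a minus Ube2d3 gave 0.29 ± 0.10 (exact permutation p = 0.0317, adjusted 0.159). Ube3a minus Ube3c gave 0.35 ± 0.09 (exact permutation p = 0.0159, adjusted 0.106). At the other end, Cul1 minus Cul3 gave 0.02 ± 0.06 and Ube2e1 minus Ube2e3 gave 0.03 ± 0.05.

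Promoter windows, from 250 bases before to 50 after the annotated start, were read from RefSeq (GRCm38.p6) for 75 members, with 102 windows, as a description of what the members share. The GC box GGGCGG, on either strand, was in 64.7% of the members' windows and in 35.7% of all 32851 windows, and the median GC content was 62.8% against 52.7%. The motif CCGGAAG of ETS factors, on either strand, was in 22.5% against 8.86%, and it can overlap a GC box. Among the 16 windows of the 12 higher members with an entry, 68.8% held the GC box and 18.8% the ETS motif. The lower members Fbxo32, Fbxo16 and Ube2g2 had no window, so higher and lower members could not be compared. CCAAT was in 24.5% of the members' windows and 37.4% of all, and in 1 of the 16 windows of higher members (6.25%). The E-box CACGTG was in 8.82% and 7.15%, with 12.5% for the higher members, and the cyclic AMP response element TGACGTCA in 2.94% and 1.79%, with 6.25%, each on either strand. The windows below belong to the 4 called members of smallest p with exactly 1 window each, all of them called higher. Whether these motifs bear on the differences was not tested. Capitals mark GC boxes and ETS motifs on either strand: Ube2z at chr11:96065315-96065614 (minus strand) has 3 GC boxes, Ube3a at chr7:59228500-59228799 (plus) has 2, Fbxo22 at chr9:55208685-55208984 (plus) has 1 and 3 ETS motifs, and Ube2n at chr10:95514912-95515211 (plus) has 1 of each.
Ube2z: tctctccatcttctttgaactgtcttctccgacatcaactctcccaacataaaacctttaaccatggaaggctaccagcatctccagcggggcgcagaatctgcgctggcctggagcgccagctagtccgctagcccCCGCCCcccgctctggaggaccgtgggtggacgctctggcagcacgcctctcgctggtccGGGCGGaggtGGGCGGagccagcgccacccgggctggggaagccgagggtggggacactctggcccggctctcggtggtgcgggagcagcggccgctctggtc
Ube3a: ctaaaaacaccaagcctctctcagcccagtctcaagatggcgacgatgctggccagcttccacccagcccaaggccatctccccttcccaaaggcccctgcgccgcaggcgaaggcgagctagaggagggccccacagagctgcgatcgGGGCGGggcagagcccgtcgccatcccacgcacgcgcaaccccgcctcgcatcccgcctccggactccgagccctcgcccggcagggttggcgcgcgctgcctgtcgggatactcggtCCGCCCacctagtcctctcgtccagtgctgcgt
Fbxo22: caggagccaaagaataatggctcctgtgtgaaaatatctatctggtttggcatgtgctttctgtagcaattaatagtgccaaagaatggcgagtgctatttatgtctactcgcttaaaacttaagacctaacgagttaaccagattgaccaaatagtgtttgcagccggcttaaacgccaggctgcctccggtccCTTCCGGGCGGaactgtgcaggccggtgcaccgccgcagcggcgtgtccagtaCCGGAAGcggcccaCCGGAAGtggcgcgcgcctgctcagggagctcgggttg
Ube2n: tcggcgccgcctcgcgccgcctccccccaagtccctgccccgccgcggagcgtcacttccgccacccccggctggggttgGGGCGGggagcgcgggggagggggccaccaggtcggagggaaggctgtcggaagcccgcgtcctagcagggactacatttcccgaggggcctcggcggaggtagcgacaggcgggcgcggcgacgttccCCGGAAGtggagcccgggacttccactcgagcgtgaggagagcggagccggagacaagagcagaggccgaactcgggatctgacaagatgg

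The enzymes and partners around these members were counted from lists that do not overlap them. Of 21 listed E1, ubiquitin and modifier genes, 11 were measured. Of these 11, 4 were higher (36.4%, against 9.28% of all genes) and 0 lower by limma. The higher genes included Uba3 (0.33 ± 0.08), a subunit of the E1 for Nedd8, Sae1 (0.23 ± 0.06), a subunit of the E1 for SUMO, and the modifier Sumo3 (0.32 ± 0.06). The list was bright, with a wild-type mean of 8.38 against 6.54 for the median gene. Of the brighter part of the genes, 17.9% were higher when tested alone, and the share of 36.4% rests on 4 genes. Of 27 cullin partners and neddylation genes, 2 were higher (7.41%) and 1 was lower (3.7%). The cullin exchange factor Cand1 was at 8.31 ± 0.09 (SD, n = 4) without the transgene and 8.78 ± 0.13 (SD, n = 5) with it, differing by 0.46 ± 0.08 (adjusted p = 0.0032, limma). The Cul5-associated ligase Arih2 was higher by 0.27 ± 0.06, and Cops7b, a subunit of the signalosome that removes Nedd8 from cullins, differed by -0.19 ± 0.05.

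Of 55 substrate receptors outside the Fbxw and Fbxo names, 3 were higher (5.45%, against 9.28% of all genes) and 7 lower (12.7%, against 7.57%). Klhl2, a Cul3 adaptor, differed by -0.71 ± 0.09 (adjusted p = 0.000775, limma), Fbxl16 by -0.70 ± 0.11 and the Cul2 receptor Vhl by -0.42 ± 0.08. The Cul3 adaptors Klhl12 (0.35 ± 0.09) and Klhl20 (0.30 ± 0.07) and the iron-sensing Fbxl5 (0.30 ± 0.07) were higher. Of 24 other HECT and U-box ligases, 6 were higher (25.0%), led by Trip12 (0.34 ± 0.06), and 5 were lower (20.8%), led by Arel1 (-0.61 ± 0.07, adjusted p = 0.000336, limma). The receptor and other ligase lists had wild-type means of 7.98 and 8.47, above the median gene at 6.54. Of the brighter part of the genes, 17.9% were higher and 11.9% lower when tested alone. Median differences were 0.09 for the E1 list, 0.02 for the cullin partners, 0.08 for the receptors and 0.09 for the other ligases, against -0.02 over all genes.

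Some lists of tissue markers differed between the genotypes, and others did not separate them. For comparison, 9.28% of all genes were called higher and 7.57% lower. All 14 measured spiny neuron markers were lower, with list means of 11.41 to 11.70 in the wild-type group and 9.47 to 10.34 in the R6/2 group. Of 10 cortex projection neuron markers 4 were higher and 1 was lower (6.06 to 6.97 against 6.76 to 7.57), and of 8 choroid plexus markers 0 passed by limma, with 8.32 and 8.49 in wild-type mice 47 and 66, 6.89 in R62_107 and 5.08 to 5.90 in the other mice. Of 8 astrocyte markers 5 were lower (10.19 to 10.44 against 9.86 to 10.12), of 8 microglia markers 4 (7.90 to 8.31 against 7.34 to 7.74) and of 7 oligodendrocyte markers 2 (10.63 to 10.90 against 10.36 to 10.93). With the cortex mean as a term, 0 of the 96 members passed, though the differences of the called members kept their sign: Ube3a gave 0.45 (adjusted p = 0.0655, limma) and Fbxo32 -0.49 (adjusted p = 0.136, limma), while Ube2d-ps fell to 0.17, Fbxo33 to 0.17, Ube2n to 0.19 and Cul4a to 0.16. In that fit 0.704% of all genes were higher. R62_95 was the lowest R6/2 mouse for 34 of the 96 members and the highest for 25.

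Calls of single members differed in how well they held. Fbxo32, Fbxo16, Ube2g2, Fbxo22, Ube2z, Ube2n, Ube3a, Fbxo9 and Fbxw8 passed whichever mouse was left out. None of these 9 passed with age or the cortex mean as a term. With age, Fbxo16 stood at -0.21 ± 0.12, Ube3a at 0.29 ± 0.12, Fbxo32 at -0.66 ± 0.18 and Ube2n at 0.39 ± 0.10. The rest stood at 0.36 for Fbxo9, 0.34 for Fbxo22, 0.31 for Ube2z, 0.29 for Fbxw8 and -0.35 for Ube2g2. The SE of Fbxo32 was 0.10 with genotype alone. With the cortex mean, Fbxo16 stood at -0.36. Without the 3 mice richest in choroid plexus transcripts, Fbxo32 and Ube2g2 passed and none of the 15 higher members did. That fit kept only mice 46 and 49 in the wild-type group and lost R62_107, and 2.16% of all genes were higher in it. Differences moved both ways there, such as from 0.39 to 0.44 for Fbxo22 and from 0.31 to 0.24 for Fbxw8. The 15 higher members also did not pass under housekeeping centring, which lowers every difference and so gives no check of the lower calls. Ube2q1 and Cul4a each held in 2 of the 9 fits that leave out a mouse.

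**Figure D4:**
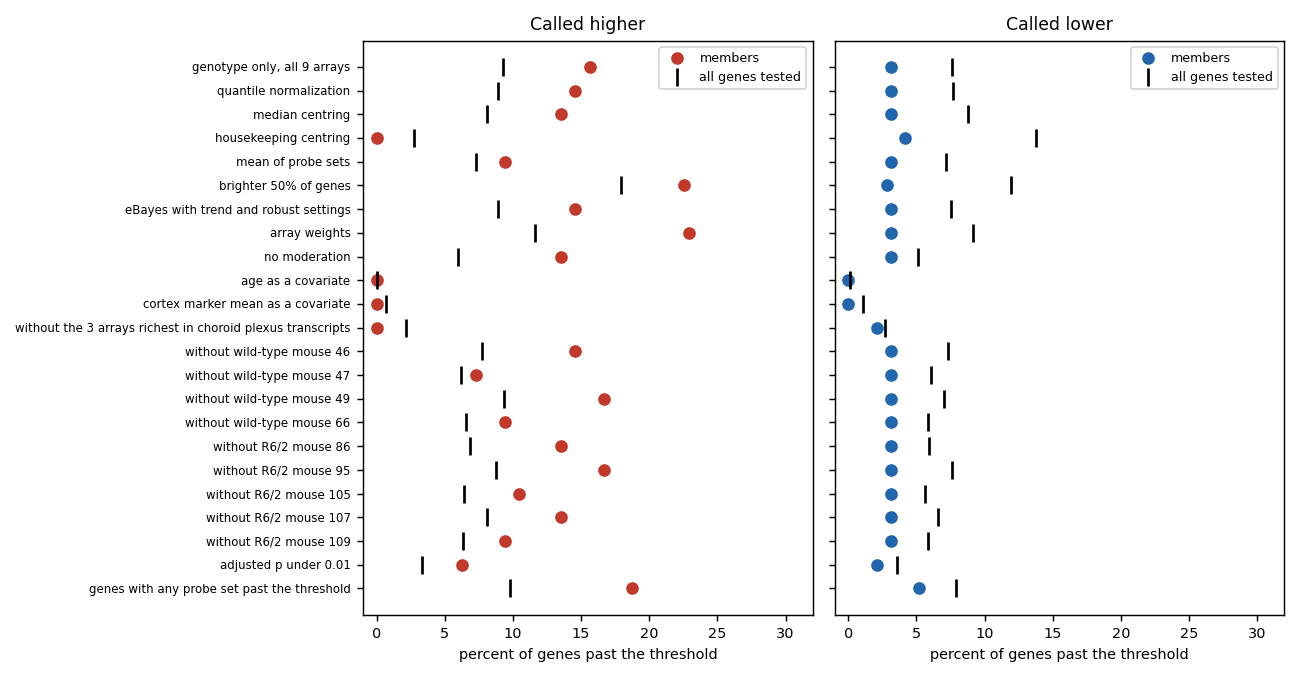
Percent of members (dots) and of all genes tested (ticks) past the threshold under each way of processing, called higher on the left and lower on the right; the last line counts genes with any probe set past it. With genotype only and all 9 arrays, 15.6% of members against 9.28% of genes were higher and 3.12% against 7.57% were lower, and 0 members were higher in 4 settings.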

How the data were processed

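Total RNA of each striatum was labelled by in vitro transcription with biotin and hybridised to 1 Affymetrix array per mouse, per the labels. The deposited values are log2 expression values that the authors made with RMA in affy, per the submitters' processing notes. RMA gives the arrays a shared distribution, so a difference is set against the rest of its array. Software versions and the set of arrays normalized as 1 batch were not given in the sources used here. Labelling by in vitro transcription begins from the 3′ end, and probe sets far from it respond to RNA quality.

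Of 45101 probe sets, 34945 named exactly 1 gene through the platform annotation, 932 named several and 9211 were unlisted. The 64 controls were counted over all probe sets and overlap these counts, except that of single-gene probe sets. For each of 18193 genes the brightest probe set was kept, with no filter on dim ones. All 96 members matched the RefSeq gene table (GRCm38.p6), which gave positions. Array correlations ran from 0.979 to 0.995 and at most 3.93% of values were identical, so no array was a copy of another. By the sample names each array came from its own mouse, and it was counted as 1 replicate. The number of arrays limits the precision.

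A two-sided limma 3.58.1 fit (R 4.3.3, lmFit then eBayes) with genotype alone was adjusted by Benjamini-Hochberg over the 18193 genes, and calls were made at 0.05. Named were up to 6 members of smallest p called each way in each class, all cullins, Ube3 and Ube4 genes, members of listed pairs, and a short fixed set of genes of known role. Some items are left out of the text. Partner genes named were up to 3 called each way per list. Fbxo28, Fbxo44, Ube2w and the Fbxw genes of chromosome 9 were chosen after their values were seen. Members, lists and tests were chosen with earlier results of these data known. Alternatives changed the scaling, the choice of probe set, the genes tested, the variance model, the covariates, the arrays and the threshold. Figures were drawn with matplotlib 3.10.9.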

Additional observations from a re-analysis of the deposited data

Results flagged for a closer look

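In 51 named members, 102 groups of mice were screened for a mouse far from the rest of its group, and 9 had one; chance gives about 5% of groups. In wild-type mice, Cul4a was 7.05 in mouse 49 (the others 7.28 to 7.31), Fbxo16 was 6.79 in mouse 47 (6.62 to 6.64) and Ube2b was 10.76 in mouse 47 (10.83 to 10.84). In R6/2 mice, Cul4a was 7.37 in R62_107 (7.49 to 7.52), Cul7 was 8.07 in R62_95 (7.74 to 7.82) and Ube3c was 8.39 in R62_95 (8.56 to 8.61). Fbxo6 was 8.16 in R62_105 (8.04 to 8.07), Ube2h was 9.45 in R62_86 (9.52 in the others), and Ube4b was 8.56 in R62_109 (8.70 to 8.71).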

How the results depend on the processing

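Of the 96 members, 15 were called higher and 3 lower, made up of 8 E2, 1 E3 or E4, 2 cullin and 7 F-box genes. Housekeeping centring gave 0 higher, with 2 E2, 0 E3 or E4, 0 cullin and 2 F-box calls. Leaving out the 3 mice of highest choroid plexus level (wild-type 47 and 66, R62_107) together gave 0 higher, with 1 E2, 0 E3 or E4, 0 cullin and 1 F-box calls, and 2.16% of all genes higher. With age or the cortex mean as a term, all these counts were 0, while over all genes 4 higher and 26 lower, and 128 higher and 202 lower, remained past the threshold. Age separates the genotypes but for R62_86. Averaging the probe sets of a gene gave 9 higher, 5 E2 and 0 E3 or E4 calls; there Fbxw8 turned to -0.05. Counting any probe set gave 5 lower, with -0.76 for Fbxw8 and -0.24 for Ube2q1 at the probe set of smallest p. At an adjusted p under 0.01, 6 were higher, with 2 E2 and 0 cullin calls. Cullin calls were 1 with quantile normalization, median centring, trend and robust settings or no moderation, and 5 with array weights. Leaving out each mouse gave 7 to 16 higher (7 without wild-type 47, 9 without wild-type 66 or R62_109), 3 to 9 E2 and 0 to 2 cullin calls. Lower and F-box counts stayed within 1.5 times under each mouse left out. No paired analysis was possible because the genotypes share no animal numbers. The causes of these changes were not tested.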
